A study of Saccharomyces cerevisiae with 3 samples.

Results

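Aminoacyl-tRNA synthetases are the enzymes that join each amino acid to its own transfer RNA before translation. The listed set held 34 Saccharomyces cerevisiae genes, chosen by name, of which 20 form the cytosolic group and 14 encode enzymes that work only in mitochondria. Probes were found by gene symbol for 33 of them, out of 5325 genes named on the array, and GRS2 had no named probe. Strains of a variomics library were the material. Such a library holds, for each gene, cells with many different mutant alleles, and DNA tags tell which gene a cell's alleles belong to. The labels give the pool as one of essential genes and give 3 arrays, 1 for cells selected with cycloheximide, 1 for rapamycin and 1 for tunicamycin, each hybridised in the Cy5 channel against untreated pool DNA in the Cy3 channel. Both channels came from the same kind of pool, which was sporulated before selection, and tags were amplified by PCR from its genomic DNA. No dose unit is explained beyond 30 ng in the cycloheximide description, 20 ng in that of rapamycin and 3 "vg" in that of tunicamycin, and the rapamycin sample is described as single where the others are described as a pool.

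In the cytosol, a failure to charge any 1 tRNA stops protein synthesis, so nearly all of these enzymes are encoded by essential genes in yeast. Mitochondria translate a small set of respiratory chain proteins with their own tRNAs and, for most amino acids, their own nuclear-encoded synthetases. Yeast that lose a mitochondrial synthetase cannot respire but can still grow by fermentation. For some amino acids 1 gene supplies both compartments, as ALA1, GRS1, HTS1 and VAS1 do.

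Each value below is a log2 ratio of drug-selected over untreated tag DNA, with the array median subtracted, averaged over the measured probes of a gene. Cy5 over Cy3 is the likely direction of the ratio, from the dyes in the labels. A value of 0 is thus the ratio of a typical spot. The array names far more genes than the essential ones, and which genes had a strain in the pool was not stated in the labels. Errors are SDs over a gene's measured probes, with n the number of probes, so they hold no replicate error. With a single array for every drug, there are no p-values here, and drugs are set side by side without a test. A gene is called depleted when it has at least 2 measured probes, its value is at least 3 spread units below 0 and every probe is at least 2 units below 0. The unit is the scaled median absolute deviation of gene values, and 3 units came to 2.77 for cycloheximide, 3.17 for rapamycin and 2.74 for tunicamycin. Arrays had 18680 to 19558 measured spots.

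Between 43.8% and 52.6% of the cytosolic genes that could be called were depleted on each array, and no mitochondrial gene was called. The labels describe a pool of essential genes and do not say that it held strains of the 14 mitochondrial genes, so tag ratios of these genes need not describe variants of them. On the cycloheximide array 10 of 19 cytosolic genes with at least 2 measured probes were depleted, against 15.2% of all genes. All genes here include many that need not have a strain in the pool. The shares of all genes need therefore not be those of essential genes, which were not computed. This count fell to 4 at a stricter threshold of 4 spread units, and to 0 of 16 when spots at ratios of small whole numbers, described further on, were left out, where the spread unit rose to 1.64. The shares of all genes fell as well, to 8.27% at the stricter threshold and to 0.416% without the whole-number spots. None of the 10 cycloheximide calls was kept without the whole-number spots. These 10 genes had no whole-number spot on that array, so none of their probes was left out. Their calls went because the spread unit and the array median changed, so the loss does not show that the calls rested on such spots. Under rapamycin 5 of 10 cytosolic genes were depleted, against 6.45% of all genes, and under tunicamycin 7 of 16, against 13.6%. Among the mitochondrial genes 0 of 11, 0 of 11 and 0 of 9 were depleted on the same arrays by this rule of size. These members are too few for 0 calls to be read as fewer than the shares of all genes. No gene of either group was enriched, and over all genes of the arrays 0.0485%, 0.0747% and 0.12% were.

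The cytosolic group had medians of -3.11, -5.25 and -2.98 for cycloheximide, rapamycin and tunicamycin, over 19, 14 and 19 genes with a measured probe. The mitochondrial group had 0.32, -0.16 and -0.13, over 14, 13 and 13 genes, and all genes had -0.04, -0.21 and -0.09. The difference of the group medians was thus -3.42 under cycloheximide, -5.08 under rapamycin and -2.85 under tunicamycin. In ratio terms the cytosolic median was 10.7-fold, 33.9-fold and 7.23-fold lower. The groups overlapped on each array, since some cytosolic genes lay near 0 and a few mitochondrial ones lay low. The lowest deposited rapamycin spot stands at -8.67 after centring, the lowest cycloheximide one at -7.48 and the lowest tunicamycin one at -9.11.

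**Figure D1:**
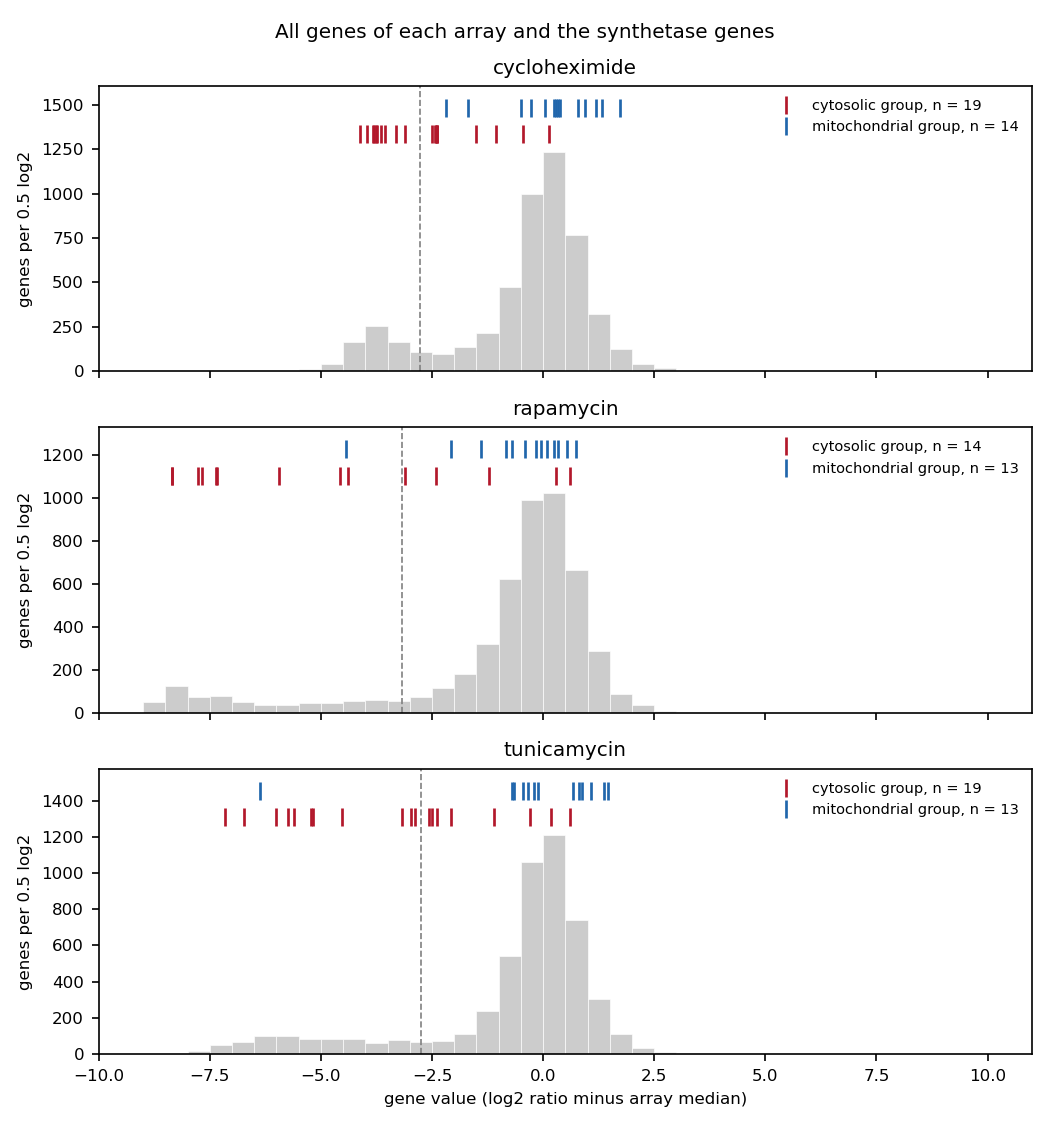
Histograms of all gene values (grey bars, genes per 0.5 log2) on each array, with each synthetase gene as a tick (red cytosolic, blue mitochondrial) and the level 3 spread units below 0 as a dashed line. On each array more red than blue ticks lie left of the dashed line, and most blue ticks sit over the main peak.

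Of the 19 cytosolic genes with probes, 12 (63.2%) were depleted on at least 1 array and 2 (10.5%) on all 3, against 14.0% and 2.27% of all named genes. Of the 10 cytosolic genes with at least 2 measured probes on all 3 arrays, 5 were depleted on at least 1 array and 2 on all 3, against 8.97% and 4.76% of the 2542 such genes. The 2 genes were ILS1 and WRS1. ILS1 (YBL076C), the isoleucyl-tRNA synthetase, had -3.75 ± 1.56 under cycloheximide, -7.77 ± 0.42 under rapamycin and -6.73 ± 0.93 under tunicamycin (n = 2 on each). WRS1 (YOL097C), the tryptophanyl enzyme, had -3.96 ± 1.04, -8.35 ± 0.13 and -5.23 ± 0.98 (n = 2 on each). Under rapamycin both probes of WRS1, at -8.44 and -8.26, lay close to the lowest spot of that array.

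A further 6 genes were called on 2 arrays, and for 4 of these the missing array was one without both probes. TYS1 (YGR185C), which charges tyrosine tRNA, had the lowest value of the set under cycloheximide, -4.13 ± 1.09, and under tunicamycin, -7.16 ± 0.76 (n = 2 on each). Both TYS1 probes were empty on the rapamycin array. This was also so for KRS1 (YDR037W), the lysyl enzyme, which had -3.83 ± 1.28 and -5.19 ± 2.27 (n = 2 on each) and no rapamycin value. HTS1 (YPR033C), whose product charges histidine tRNA in both compartments, had -3.80 ± 1.55 and -6.00 ± 1.83 (n = 2 on each) and -8.34 (n = 1) under rapamycin. ALA1 (YOR335C), which supplies alanyl-tRNA synthetase to both compartments, had -3.30 ± 0.68 and -4.52 ± 1.39 (n = 2 on each) and -7.69 (n = 1) under rapamycin. These 4 genes therefore had no rapamycin call, because a call needs 2 measured probes.

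DED81 and MES1 were fully measured and differed in which arrays passed. DED81 (YHR019C), the asparaginyl enzyme, was depleted at -3.11 ± 0.59 under cycloheximide and -4.40 ± 0.01 under rapamycin, and had -2.39 ± 0.05 under tunicamycin (n = 2 on each). MES1 (YGR264C), the methionyl enzyme, was depleted at -7.33 ± 0.50 under rapamycin and -2.89 ± 0.62 under tunicamycin, and had -2.43 ± 0.33 under cycloheximide (n = 2 on each). All probes of both genes lay below 0 on all 3 arrays, and the values without a call were less than 1 unit from the level that a call requires. MES1 lost its tunicamycin call when coded spots were kept, at the stricter threshold, and without the whole-number spots, where 1 probe was left. DED81 lost its rapamycin call without the whole-number spots, and its cycloheximide call also at the stricter threshold.

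Single calls came from DPS1, FRS2, SES1 and GUS1. DPS1 (YLL018C), the aspartyl enzyme, had -3.64 ± 0.42 (n = 2) under cycloheximide, -7.36 (n = 1) under rapamycin and -2.50 ± 0.41 (n = 2) under tunicamycin. SES1 (YDR023W), the seryl enzyme, had -3.74 ± 0.76 (n = 2) with cycloheximide and -5.59 (n = 1) with tunicamycin, and no measured rapamycin probe. GUS1 (YGL245W), the glutamyl enzyme, had -2.38 ± 0.57, -5.94 ± 3.26 and -2.07 ± 3.79 (n = 2 on each). The call of GUS1 is the rapamycin one, where its probes stood at -8.24 and -3.63.

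The subunits of cytosolic phenylalanyl-tRNA synthetase gave different values. This enzyme is built from the products of FRS1 and FRS2, and both genes are essential. FRS2 (YFL022C) was depleted under cycloheximide at -3.56 ± 0.92 (n = 2), had -5.74 (n = 1) under tunicamycin and had both probes empty under rapamycin. FRS1 (YLR060W) had -0.46 ± 2.28, 0.29 ± 0.48 and 0.17 ± 1.83 (n = 2 on each). Its probes stood on opposite sides of 0 on each array, at 1.15 and -2.07 under cycloheximide, 0.63 and -0.05 under rapamycin and -1.13 and 1.46 under tunicamycin. On the cycloheximide and tunicamycin arrays both FRS1 probes stood at ratios of small whole numbers, a feature defined further on. Both FRS2 probes on the cycloheximide array, at -2.91 and -4.22, lay below both FRS1 probes.

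CDC60 (YPL160W), the cytosolic leucyl-tRNA synthetase, also stayed close to the array median. It had -1.06 ± 0.22 (n = 2) under cycloheximide, -1.22 (n = 1) under rapamycin and -1.10 (n = 1) under tunicamycin. Such values are 2.08-fold, 2.33-fold and 2.14-fold lower than the array median, and the cycloheximide probes, at -1.21 and -0.90, differed little. On each array 22.4%, 23.8% and 22.2% of all genes had a lower value than CDC60. By comparison, 6.80%, 4.05% and 1.93% of genes lay below ILS1, which charges the related amino acid isoleucine.

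**Figure D2:**
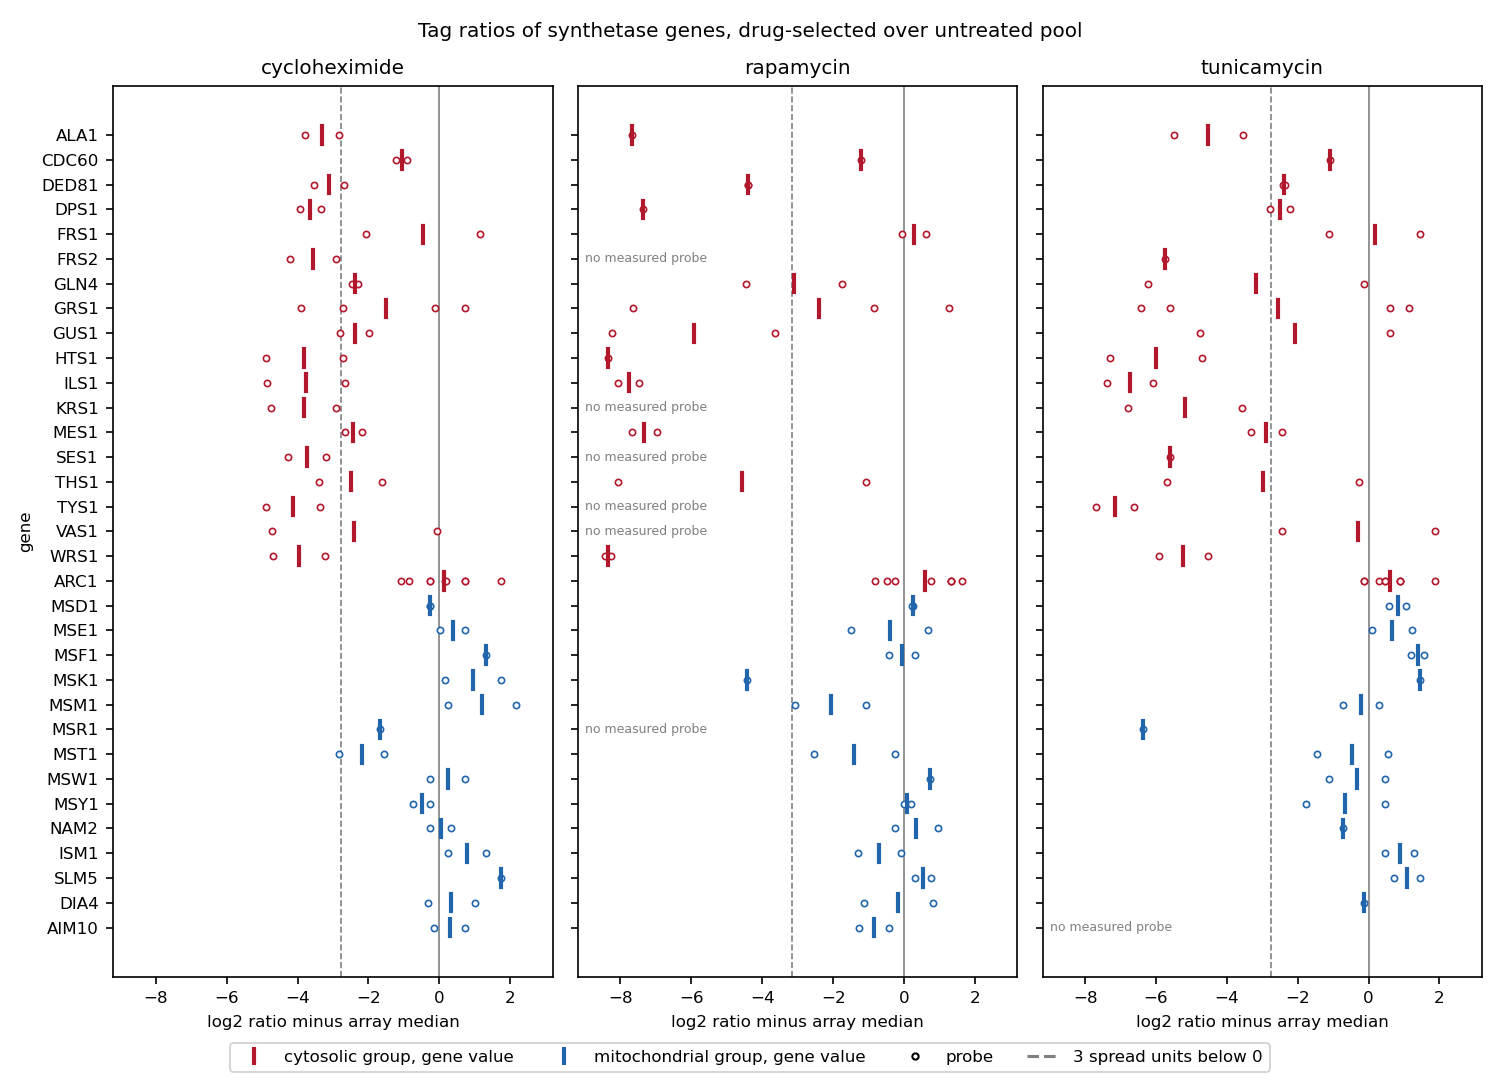
Every measured probe (open circles) and the gene value (vertical bars) of the 33 genes with probes, in log2 ratio minus array median, for each array. Cytosolic genes are red, mitochondrial ones blue, and the dashed line marks 3 spread units below 0. ILS1 and WRS1 have gene values left of the dashed line on each array, and FRS1, CDC60 and ARC1 lie near 0.

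THS1 and GLN4 were not called on any array, and under tunicamycin each had 1 low probe and 1 near 0. THS1 (YIL078W), the threonyl enzyme, had -2.50 ± 1.25, -4.56 ± 4.94 and -2.98 ± 3.83 (n = 2 on each). Its lower-numbered probe stood at -3.38, -8.06 and -5.69, and its higher-numbered probe at -1.62, -1.06 and -0.27. GLN4 (YOR168W), the glutaminyl enzyme, had -2.38 ± 0.12, -3.10 ± 1.91 and -3.18 ± 4.32 (n = 2 on each). Its probes agreed under cycloheximide, at -2.30 and -2.46, and stood at -6.24 and -0.13 under tunicamycin. In THS1, GLN4 and GUS1 the higher-numbered probe was the one near 0 under tunicamycin.

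VAS1 (YGR094W), the valyl enzyme of both compartments, was the reverse case. Its higher-numbered probe was the lower one, at -4.73 against -0.07 under cycloheximide and -2.45 against 1.87 under tunicamycin, and both probes were empty under rapamycin. The gene values were -2.40 ± 3.30 and -0.29 ± 3.06 (n = 2 on each). The mean of such a pair describes neither probe.

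GRS1 (YBR121C), the glycyl enzyme of both compartments, was named on 4 probes, which form 2 pairs at the spacing of probe numbers found in all 4439 genes with exactly 2 probes. On 1 pair it had 0.31 ± 0.60, 0.21 ± 1.50 and 0.87 ± 0.37 (n = 2 on each). On the other pair it had -3.32 ± 0.84 (n = 2), -7.65 (n = 1) and -6.01 ± 0.59 (n = 2). The mean over all 4 probes was -1.50 ± 2.18 (n = 4), -2.41 ± 4.67 (n = 3) and -2.57 ± 4.0 (n = 4), which gave no call. Taken alone, the second pair would be called depleted under cycloheximide and tunicamycin. The annotation does not say which pair marks a GRS1 strain, and this split was made after the values were seen.

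ARC1 (YGL105W) encodes a tRNA-binding cofactor that binds Mes1 and Gus1, the methionyl and glutamyl enzymes, and unlike them it is not essential. Its 12 probes gave 0.12 ± 0.87 (n = 9), 0.60 ± 0.97 (n = 8) and 0.61 ± 0.62 (n = 9). No ARC1 probe was as low as -2 on any array, with the lowest at -1.07, -0.81 and -0.13. The labels do not say that the pool held ARC1 strains, so these values need not describe ARC1 variants.

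**Figure D3:**
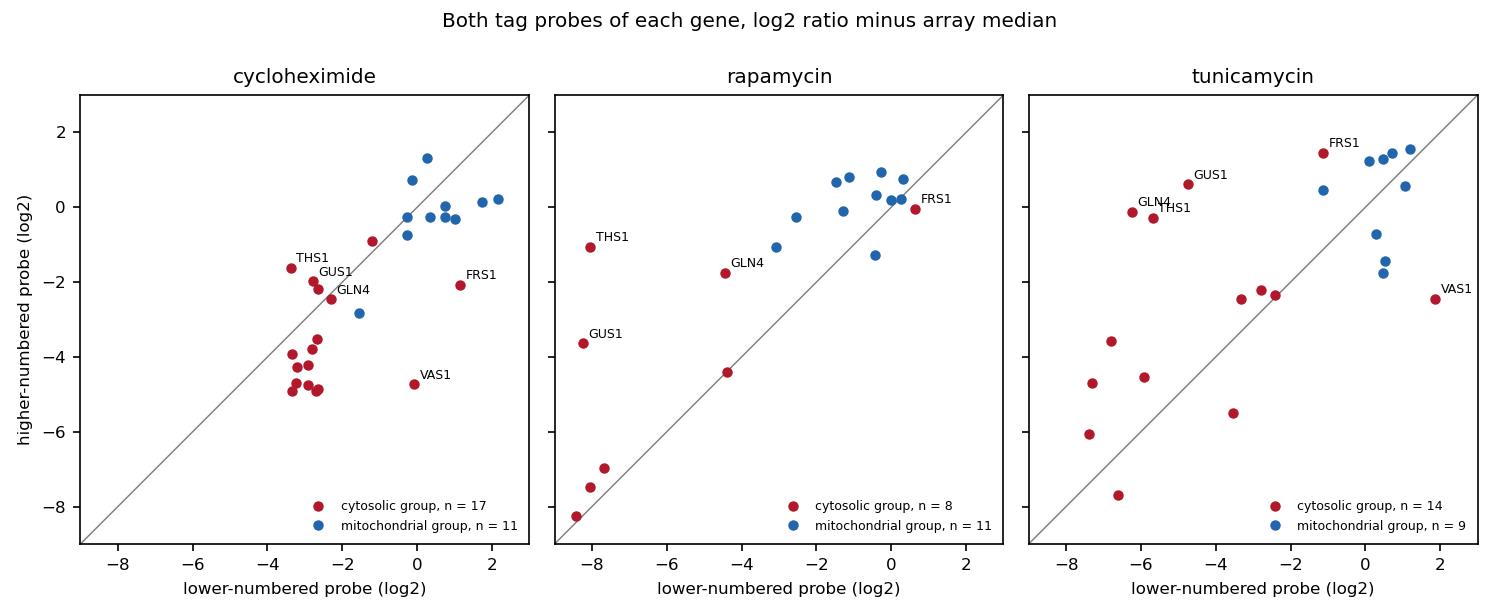
Higher-numbered against lower-numbered probe of each gene with 2 measured probes, in log2 ratio minus array median, per array (red cytosolic, blue mitochondrial), with the line of equality. THS1, GUS1 and GLN4 lie far above the line under tunicamycin, and VAS1 lies far below it under cycloheximide and tunicamycin.

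The probes of a gene differed in a way that changed with the array. Among the cytosolic genes with 2 measured probes, the higher-numbered probe was the lower one in 13 of 17, 2 of 8 and 3 of 14 genes on the cycloheximide, rapamycin and tunicamycin arrays. The median difference, higher-numbered minus lower-numbered, was -1.08, 0.65 and 1.35 on the log2 scale. Mitochondrial genes had -0.71, 1.21 and 0.37, larger than the cytosolic difference under rapamycin and smaller under cycloheximide and tunicamycin. All genes with 2 probes showed the same signs at a smaller size, -0.41, 0.36 and 0.32. Probes stood more than 2 units apart in 4, 3 and 8 cytosolic genes (23.5%, 37.5% and 57.1% of those with both measured) and in 1, 2 and 2 mitochondrial ones (9.09%, 18.2% and 22.2%), against 25.7%, 25.3% and 28.3% of all genes. Because both probes of a gene must be low for a call, this offset bears on every count above, and its part in the differences between genes was not tested.

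Empty spots were unevenly spread as well. Of the 38 cytosolic spots outside ARC1, 0 were empty under cycloheximide, 15 (39.5%) under rapamycin and 3 (7.89%) under tunicamycin. Over all named spots 14.0%, 12.7% and 12.7% were empty, and of the 28 mitochondrial spots 10.7%, 14.3% and 21.4%. In 4 cytosolic genes, ALA1, CDC60, DPS1 and HTS1, the rapamycin array had the lower-numbered probe only, and in 0 it had the higher-numbered probe only. FRS2, KRS1, SES1, TYS1 and VAS1 had neither. The rapamycin count therefore covers 10 of 19 cytosolic genes. When 1 measured probe was enough, 8 of 14 cytosolic genes were depleted under rapamycin, against 11.7% of all genes, with ALA1, DPS1 and HTS1 added.

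The 2 groups also differed in how many spots held a ratio of small whole numbers. A spot was counted when 2 whole numbers of at most 10 have a quotient whose log2 matches the deposited value to 3 decimals. Such spots made up 64.0%, 45.8% and 63.6% of the measured mitochondrial spots on the cycloheximide, rapamycin and tunicamycin arrays, against 66.7%, 40.7% and 63.1% of all named spots. For cytosolic genes outside ARC1 the shares were 13.2%, 4.35% and 25.7%. In ARC1 it was 8 of 9, 6 of 8 and 9 of 9 spots. The limit of 10 allows no deposited value below -3.32, so the deepest spots could not be counted and part of the difference between the groups follows from their depth. Restricted to spots less than 2 units below 0, the counts were 4 of 7, 1 of 7 and 7 of 9 in the cytosolic group without ARC1 and 16 of 24, 11 of 21 and 14 of 21 in the mitochondrial group.

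**Figure D4:**
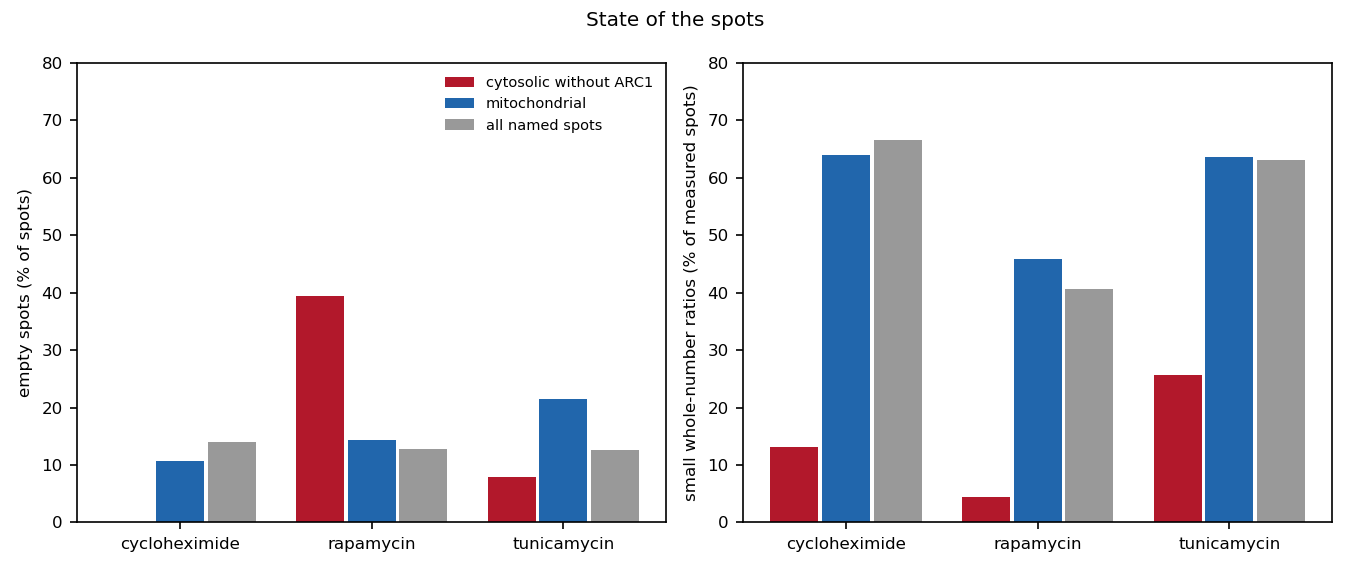
Percentage of empty spots (left) and of measured spots equal to a ratio of small whole numbers (right), per array, for cytosolic genes without ARC1 (red), mitochondrial genes (blue) and all named spots (grey). The mitochondrial genes follow all named spots on the right, and the cytosolic genes lie below them.

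Mitochondrial enzymes were compared with the cytosolic enzyme for the same amino acid in 13 gene pairs, which cover 12 amino acids since FRS1 and FRS2 both pair with MSF1. The cytosolic gene was lower in 13 of 13 pairs under cycloheximide and 13 of 13 under tunicamycin. Under rapamycin 9 pairs had a value on both sides and the cytosolic gene was lower in 8 of them. All measured probes of the cytosolic gene lay below all those of its partner in 12, 7 and 10 pairs. The median difference, cytosolic minus mitochondrial, was -3.63, -5.26 and -3.47. Both phenylalanine pairs use the same MSF1 probes, and all pairs of an array share 1 hybridisation. Arginine and proline were not paired, since YDR341C and YHR020W are outside the list. For arginine the gene value of the mitochondrial MSR1, from 1 probe, was the lower one where both had a value. Under cycloheximide this order is not clear, since the YDR341C probes, at -3.33 and 1.32, lay on either side of MSR1 at -1.68. For proline YHR020W was lower than AIM10.

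The tryptophan pair had the largest difference under rapamycin and the isoleucine pair the largest under tunicamycin. MSW1 (YDR268W), the mitochondrial tryptophanyl enzyme, had 0.24 ± 0.71 (n = 2), 0.74 (n = 1) and -0.33 ± 1.12 (n = 2), and WRS1 minus MSW1 was -9.09 under rapamycin. ISM1 (YPL040C), the mitochondrial isoleucyl enzyme, had 0.79 ± 0.76, -0.70 ± 0.85 and 0.87 ± 0.59 (n = 2 on each), and ILS1 minus ISM1 was -7.61 under tunicamycin. Neither partner had a probe as low as 2 units below 0.

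Partners of the tyrosine, lysine, serine, aspartate and asparagine enzymes had gene values within 1 of the array median or above it, except for MSK1 under rapamycin. MSY1 (YPL097W), for tyrosine, had -0.50 ± 0.34, 0.10 ± 0.14 and -0.66 ± 1.58 (n = 2 on each), with a tunicamycin probe at -1.77. DIA4 (YHR011W), the mitochondrial seryl enzyme, had 0.34 ± 0.93 (n = 2), -0.17 ± 1.37 (n = 2) and -0.13 (n = 1). MSD1 (YPL104W), for aspartate, had -0.26 ± 0.00, 0.25 ± 0.02 and 0.82 ± 0.35 (n = 2 on each). Identical whole-number ratios in both cycloheximide probes give MSD1 its SD of 0. SLM5 (YCR024C), for asparagine, had 1.74 (n = 1), 0.54 ± 0.31 (n = 2) and 1.09 ± 0.53 (n = 2). MSK1 (YNL073W), for lysine, had 0.94 ± 1.12 (n = 2) and 1.46 (n = 1) under cycloheximide and tunicamycin, but -4.43 in its only measured rapamycin probe. That probe stands alone, since the other MSK1 probe was empty and the KRS1 probes were empty too.

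The glutamate, leucine, phenylalanine, methionine and threonine pairs make up the rest. MSE1 (YOL033W), for glutamate, had 0.38 ± 0.50, -0.40 ± 1.53 and 0.67 ± 0.79 (n = 2 on each). NAM2 (YLR382C), the mitochondrial leucyl enzyme, which also acts in the splicing of mitochondrial introns, had 0.04 ± 0.43 (n = 2), 0.34 ± 0.86 (n = 2) and -0.71 (n = 1). The leucine pair therefore differed by only -1.09, -1.57 and -0.39, because CDC60 was itself near 0. MSF1 (YPR047W), for phenylalanine, had 1.32 (n = 1), -0.05 ± 0.52 (n = 2) and 1.38 ± 0.26 (n = 2). FRS2 minus MSF1 was -4.89 under cycloheximide, the largest gap of that array, and -7.12 under tunicamycin. FRS1 minus MSF1 was -1.78 and -1.21 on these arrays. FRS1 lay above MSF1 by 0.34 under rapamycin, which was the 1 pair in the other direction and was smaller than the SD of either gene.

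MSM1 and MST1 were the mitochondrial genes with both probes more than 1 below 0 on 1 array. MSM1 (YGR171C), for methionine, had 1.19 ± 1.36, -2.07 ± 1.41 and -0.21 ± 0.71 (n = 2 on each), with rapamycin probes at -3.07 and -1.07. MST1 (YKL194C), for threonine, had -2.19 ± 0.90, -1.41 ± 1.62 and -0.46 ± 1.40 (n = 2 on each), with cycloheximide probes at -2.82 and -1.55. Neither met the call rule, and the threonine pair differed by -0.31 under cycloheximide, less than the SD of either gene.

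MSR1 and AIM10 have no cytosolic partner in the list. MSR1 (YHR091C), the mitochondrial arginyl enzyme, was the lowest mitochondrial gene under tunicamycin, at -6.36 (n = 1), and had -1.68 (n = 1) under cycloheximide and no measured rapamycin probe. Only its lower-numbered probe was measured on either array, so MSR1 could not be called. In the tunicamycin array 2.91% of all genes had a lower value. The arginine gene YDR341C, outside the list, had gene values above MSR1, at -1.01 ± 3.29 under cycloheximide and -1.88 ± 3.90 under tunicamycin (n = 2 on each). Under cycloheximide 1 of its probes, at -3.33, lay below MSR1. AIM10 (YER087W), the mitochondrial prolyl enzyme, had 0.29 ± 0.63 and -0.85 ± 0.59 (n = 2 on each) and both probes empty under tunicamycin. The proline gene YHR020W, also outside the list, lay below AIM10, at -3.25 ± 0.30 under cycloheximide and -5.27 ± 2.98 under rapamycin (n = 2 on each). Without MSR1 the lowest mitochondrial value under tunicamycin was -0.71, that of NAM2, and the group median 0.27.

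**Figure D5:**
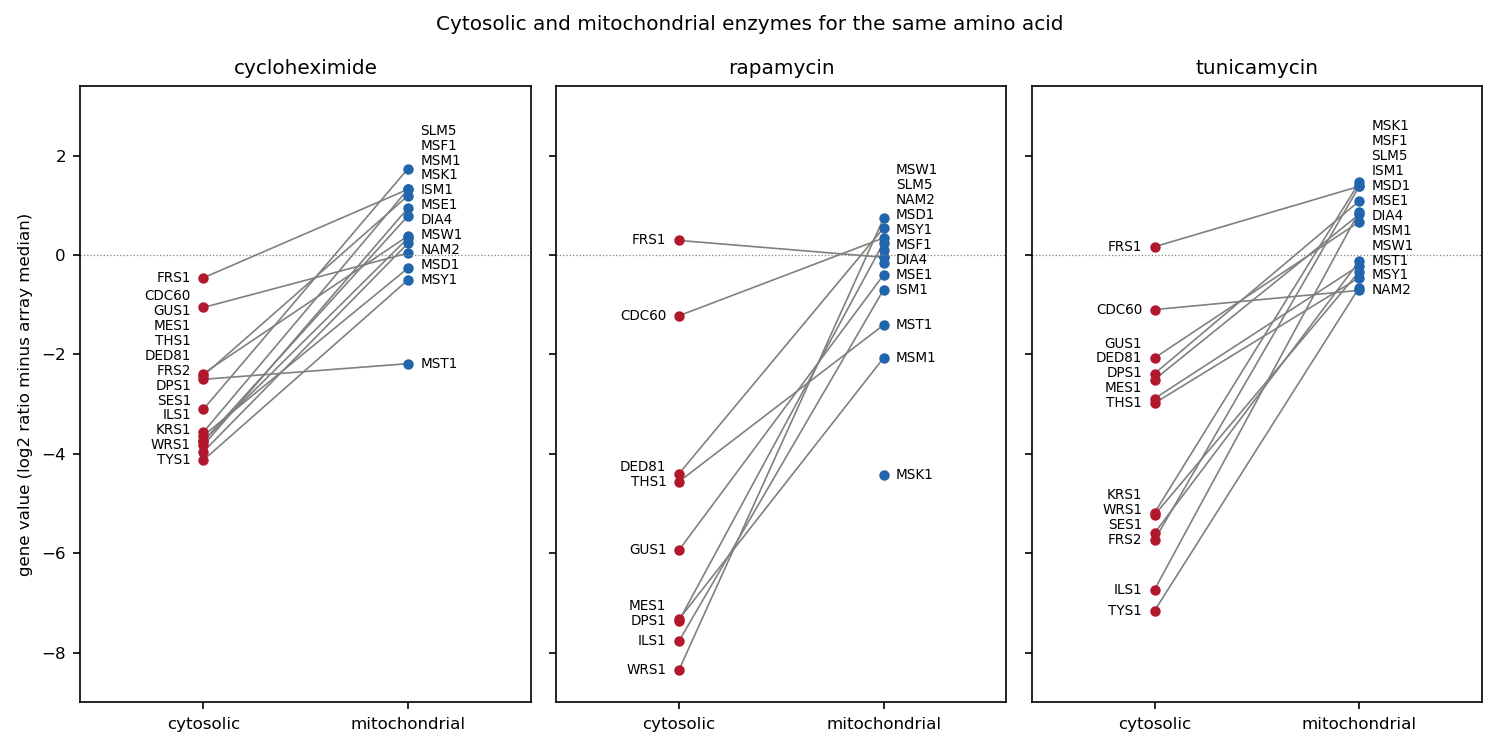
Gene values (log2 ratio minus array median) of cytosolic (red) and mitochondrial (blue) enzymes for the same amino acid, joined by a line where both were measured, per array. Labels are spread vertically for legibility. All lines rise to the right except that from FRS1 to MSF1 under rapamycin.

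Synthetases fall into 2 unrelated structural classes, and the cytosolic values did not order by class in the same way on all arrays. Class I cytosolic enzymes had medians of -2.41, -6.63 and -3.04 over 8, 6 and 8 genes. Class II enzymes had -3.43, -4.56 and -3.75 over 10, 7 and 10 genes. Depleted members numbered 3 of 8, 4 of 5 and 4 of 7 in class I and 7 of 10, 1 of 4 and 3 of 8 in class II, against 15.2%, 6.45% and 13.6% of all genes. The 4 enzymes of both compartments had medians of -2.85, -7.69 and -3.55, over 4, 3 and 4 genes, with ALA1 and HTS1 low on each array. The rapamycin median is the ALA1 value, from 1 probe, and HTS1 also had 1 there. Only 1 of the 4 genes, GRS1, had at least 2 measured probes on that array.

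A further 3 genes outside the list are named on the array only by systematic name, and of those with at least 2 measured probes 1 of 3, 1 of 2 and 0 of 2 were depleted, against 15.2%, 6.45% and 13.6% of all genes. YHR020W, for proline, was depleted at -3.25 ± 0.30 under cycloheximide and -5.27 ± 2.98 under rapamycin, and had -2.05 ± 0.66 under tunicamycin (n = 2 on each). YDR341C, for arginine, had -1.01 ± 3.29, -3.78 ± 5.38 and -1.88 ± 3.90 (n = 2 on each), with 1 probe low and the other at or above 0 on each array. YNL247W, called CRS1 in RefSeq and known as a cysteinyl-tRNA synthetase, had -2.21 ± 0.89 (n = 2), -3.85 (n = 1) and -6.14 (n = 1).

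Of 15 genes for tRNA maturation, repair and export, those depleted numbered 4 of 12, 1 of 7 and 5 of 15 in the order of arrays above, against 15.2%, 6.45% and 13.6% of all genes, with medians of -2.49, -2.68 and -2.35 over all measured members. CCA1 (YER168C), which adds the terminal CCA to which synthetases attach amino acids, had -3.60 ± 0.84 under cycloheximide and -5.10 ± 1.23 under tunicamycin (n = 2 on each). TAD2 (YJL035C) and TAD3 (YLR316C), the subunits of the tRNA adenosine deaminase, had -3.92 ± 1.41 and -4.02 ± 0.93 under cycloheximide and -7.66 ± 0.78 and -6.52 ± 1.73 under tunicamycin (n = 2 each). The extremes of this list were SEN2, a subunit of the tRNA splicing endonuclease, at -4.13 ± 0.99 (n = 2) and THG1 at 0.74 (n = 1) under cycloheximide, TRZ1 at -8.65 (n = 1) and SEN15 at 1.32 (n = 1) under rapamycin, and TAD2 and TRZ1 under tunicamycin. TRZ1 (YKR079C), the endonuclease that trims tRNA 3' ends, was enriched there at 4.61 ± 0.88 (n = 2).

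A further list held 4 genes that act on charged mitochondrial tRNAs. PET112, HER2 and GTF1 encode the amidotransferase that makes mitochondrial glutaminyl-tRNA, and FMT1 the formyltransferase of the initiator tRNA. None of 2, 2 and 3 members with at least 2 measured probes was depleted, against 15.2%, 6.45% and 13.6% of all genes, too few members to read against that share. The medians were -0.42, 1.07 and 0.62. HER2 at -0.58 and FMT1 at 1.32 (n = 1 each) were the extremes under cycloheximide, and FMT1 at 0.27 ± 2.11 (n = 2) and HER2 at 1.32 (n = 1) those under rapamycin. With tunicamycin HER2 was lowest at 0.29 (n = 1), and FMT1 at 0.87 ± 1.41 (n = 2) and PET112 at 0.87 ± 0.00 (n = 2) were highest.

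Elongation factors, which bring charged tRNAs to the ribosome and move them through it, had 0 of 5, 0 of 3 and 1 of 6 depleted members, against 15.2%, 6.45% and 13.6% of all genes. TEF1 had no named probe. YEF3 (YLR249W), the fungal elongation factor 3, was the lowest on each array, at -2.81 ± 1.85 (n = 2), -5.28 (n = 1) and -4.17 ± 0.29 (n = 2), and its tunicamycin value was the call. The highest members were TUF1, the mitochondrial factor, at 1.35 (n = 1) with cycloheximide, EFB1 at 0.65 (n = 1) with rapamycin and EFT1 at 1.21 ± 0.80 (n = 7) with tunicamycin. EFT1 and EFT2, duplicated genes for the same translocation factor, had -0.13 ± 0.81 (n = 10) and 0.06 ± 1.21 (n = 11) under cycloheximide. The duplicated members need not have strains in an essential-gene pool, so the list medians of -0.30, 0.25 and 0.21 describe a mixture.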

How the data were processed

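Genomic DNA tags of a yeast pool were compared on 3 two-colour arrays, 1 per drug. The deposited values are log2 ratios, 1 per spot and array; base 2 was read from the values. The sources used here name no scanner, background correction or normalization. Deposited medians were -0.74, -1.32 and -0.87, so the authors' values were not median-centred. The value 16.61, the log2 of 100000, stood on 739, 196 and 526 spots and was left out as a code, as were 3156, 2821 and 2951 empty spots. Channel signals were not analysed here, and the number of arrays limits the precision.

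Probes were named through a platform annotation: 18794 probes had 1 gene, 0 several and 3781 none. The RefSeq table of assembly R64 matched 5321 of 5325 genes and was used for names and neighbours only. A synonym shared with another gene was not used. Gene values, calls and medians were computed with Python 3.11.15, pandas 2.3.3 and numpy 2.4.6. The recovery of set shifts in gene values was checked on simulated data. The simulated probes were independent, with no empty spots and no offset between probe numbers, so the check does not cover those features. Named genes are all members and, for other genes of tRNA metabolism, the lowest and highest of each list. CCA1, TAD3, EFT1, EFT2, GTF1 and PET112 were named as well after their values were seen. Members and lists were chosen with earlier results of these data known. No sequences are printed.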

Additional observations from a re-analysis of the deposited data

Results flagged for a closer look

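TRZ1, of the list of tRNA maturation genes, passed 3 spread units on opposite sides of the array median on different arrays. It had -2.93 ± 1.82 (n = 2) under cycloheximide, -8.65 (n = 1) under rapamycin and 4.61 ± 0.88 (n = 2) under tunicamycin. With 1 array per drug the difference was not tested. No synthetase gene did this.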

How the results depend on the processing

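The difference of medians between the groups kept its sign under every alternative run. In 3 cases it moved from the reported value by more than the members' pooled probe SD divided by the square root of 2. This limit holds no replicate error and is not an error of the difference of medians. Leaving out spots at small whole-number ratios gave -5.78 for tunicamycin, and the lower-numbered probe alone, an alternative chosen after seeing the data, gave -7.09 for rapamycin and -5.63 for tunicamycin. The count of depleted cytosolic genes under cycloheximide was 4 at the stricter threshold of 4 spread units (3 per probe), and 0 without the whole-number spots, where the spread unit rose from 0.924 to 1.64. The genes called by the main rule lost no probe in the run without these spots, and only the unit and the array median changed. Over all genes the counts under these 2 settings were 341 of 4121 and 6 of 1442, against 625 of 4121. Under rapamycin the count was 8 when 1 measured probe sufficed, and over all genes 599 of 5110 against 259 of 4015. Without centring 14, 7 and 9 cytosolic genes were depleted, against 17.5%, 9.94% and 15.3% of all genes, and MST1 and MSM1 were the mitochondrial genes called, under cycloheximide and rapamycin. With 1 probe sufficing MSK1 was called under rapamycin and MSR1 under tunicamycin. No paired analysis was possible because each drug has 1 array and no test was made.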

Other observations

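Some mitochondrial synthetase genes lie next to genes that were themselves depleted by the call rule. By the R64 gene order this held for 4, 2 and 4 of 14 genes on the cycloheximide, rapamycin and tunicamycin arrays. Over 5308 named genes in that order the shares with a depleted neighbour were 20.8%, 8.72% and 19.1%, so the counts are near the background and show nothing particular to these genes. SMC5, which neighbours MSE1 and encodes a subunit of a DNA repair complex, had -3.92 ± 0.75, -7.23 ± 0.80 and -4.22 ± 0.27 (n = 2 on each), while MSE1 had 0.38, -0.40 and 0.67. CIA1, a factor of cytosolic iron-sulfur protein assembly beside MSW1, had -3.31 ± 0.60, -3.51 ± 1.63 and -3.55 ± 2.26 (n = 2 on each), while MSW1 had 0.24, 0.74 and -0.33. MST1 lies between MIA40, of mitochondrial protein import, and SDS22, a phosphatase regulator, which had -4.21 ± 2.17 and -3.96 ± 1.57 under cycloheximide and -5.85 ± 0.61 and -6.24 ± 0.74 under tunicamycin (n = 2 each). MSR1, the lowest mitochondrial gene under tunicamycin, lies beside HXT4, which had -0.27 ± 1.29 (n = 12) there, and YNG2, which had no measured probe.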
